A study of Mus musculus with 6 samples.

Results

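Bcl6, the transcriptional repressor at the centre of this account, and 8 genes linked with it or with growth hormone signalling were followed in RNA sequencing of mouse gastrocnemius muscle. The 9 genes are Bcl6, the growth hormone receptor Ghr, the transducers Stat5a and Stat5b, the growth factor gene Igf1, the feedback inhibitors Socs2, Socs3 and Cish, and the coactivator gene Pnrc1. They were found by symbol among the 43346 genes of the deposited count table, each in 1 row, and all 9 were among the 15583 genes that passed the filter on low counts. The set was selected on measured values: Bcl6 and Pnrc1 had been picked because they ranked 11 and 19 of all tested genes by p in the comparison of knockout with vehicle, and the other 7 were proposed with results of that same comparison known. The difference between the groups is therefore given for the 9 genes as a description, without a test.

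All 6 mice were males aged 6 months that carried Vdr fl/fl, with loxP sites around exon 3 of the vitamin D receptor gene, together with the actin iCre transgene (ACTA1-cre/Esr1*), which codes for a Cre recombinase active in skeletal muscle fibres once tamoxifen is given. The knockout group was 3 mice injected with tamoxifen, 100 mg/kg in 75 microliters, for 5 days. The vehicle group was 3 mice of the same genotype injected with 10% ethanol in corn oil on the same schedule, so the controls carried the floxed alleles and the transgene but received no tamoxifen. Recombination, Cre activity and tamoxifen itself cannot be told apart in this pair of groups. Blood, vessel, connective and nerve cells of the muscle do not use the actin promoter and would keep Vdr. The diet of all mice held 0.81% calcium, with vitamin D3 at 3.4 IU/g, and muscle was taken after tests of glucose tolerance and strength made 10 days after the last injection.

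Growth hormone is released by the pituitary in pulses. It binds GHR on its target cells and activates the kinase JAK2, which phosphorylates the latent transcription factors STAT5A and STAT5B. These enter the nucleus and switch on Igf1, the local growth factor of muscle, and Cish and Socs2, whose proteins bind the activated receptor and shut the signal down. SOCS3 is also a feedback inhibitor but is best known as the brake on interleukin-6 type cytokines acting through STAT3. BCL6 is a zinc finger repressor, essential for germinal centre B cells, that recognises DNA much like that bound by STAT proteins, and in liver it opposes part of the STAT5 programme. PNRC1 is a small proline-rich protein that binds nuclear receptors and the mRNA decapping machinery.

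Promoter sequences show where STAT proteins could meet these genes, so the stretches that hold the palindrome TTCNNNGAA, the core recognised by STAT5, are shown first. RefSeq (GRCm38.p6, the same assembly as mm10) gave 12 windows of 300 bases, from 250 before to 50 after a transcription start, for 8 of the 9 genes. The palindrome reads the same on both strands. It was present in 5 of the 12 windows, those of Bcl6, Socs3, Cish and Pnrc1, and in 8.30% of all 32851 such windows. Both Bcl6 windows held it. All sequences run 5′ to 3′ on the minus strand of the genome except that of Cish, which lies on the plus strand, and capitals mark the palindrome.
Bcl6, upstream start, chr16:23988853-23989102: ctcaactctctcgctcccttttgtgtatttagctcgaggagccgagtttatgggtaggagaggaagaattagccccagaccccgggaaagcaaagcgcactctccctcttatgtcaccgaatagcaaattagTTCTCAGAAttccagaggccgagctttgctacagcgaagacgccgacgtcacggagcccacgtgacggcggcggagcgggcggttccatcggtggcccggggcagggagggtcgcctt
Bcl6, internal start, chr16:23981284-23981533: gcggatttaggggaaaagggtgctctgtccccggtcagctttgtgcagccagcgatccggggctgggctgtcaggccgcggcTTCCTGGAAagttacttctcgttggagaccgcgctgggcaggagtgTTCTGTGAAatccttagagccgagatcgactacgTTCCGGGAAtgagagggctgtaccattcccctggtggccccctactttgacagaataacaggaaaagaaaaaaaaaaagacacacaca
Pnrc1, chr4:33248788-33249037: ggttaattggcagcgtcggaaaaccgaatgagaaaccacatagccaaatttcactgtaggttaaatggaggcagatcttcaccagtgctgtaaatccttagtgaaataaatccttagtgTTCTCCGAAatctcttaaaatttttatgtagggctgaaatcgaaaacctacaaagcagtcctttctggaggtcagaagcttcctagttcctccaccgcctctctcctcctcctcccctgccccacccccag
Cish, chr9:107296654-107296683: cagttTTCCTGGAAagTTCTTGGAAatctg
Socs3, chr11:117969502-117969531: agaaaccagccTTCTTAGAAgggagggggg

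The internal Bcl6 start had 3 palindromes, whose first bases lay at positions -168, -122 and -88 from the start, and the upstream start had 1, at -118. In Cish a pair of palindromes began at bases 1 and 12 from the start used for its window. That start lay inside the annotated span of Cish, which begins at 107296026. All 250 bases before it, and all 30 printed bases, were annotated exon. The palindrome of Pnrc1 began at -131 and that of Socs3 at -154. The printed Pnrc1 stretch is from an internal start, within the gene's annotated span of 33245423 to 33290163 and not at its upstream end. Of the 250 bases before the Socs3 start, 77 were annotated exon, but 0 of those printed. The windows of Igf1, Ghr, Stat5a and Stat5b held none. TGTTTAC, the core bound by FoxO factors, was searched on both strands and was in none of the 12 windows, against 3.65% of all windows. A match only says that these letters are present.

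The libraries held 30486874 to 39909535 counted reads, and values are given as CPM, the reads of a gene scaled to the library total after TMM adjustment. A floor of 3 reads corresponded to 0.0783 to 0.0929 CPM, far below every value of the 9 genes. Fibre genes such as Acta1 and Ckm made up most of the marker signal in every library (93540 to 195500 CPM summed over 8 markers), and T lymphocyte markers were near 0 (0.0783 to 0.579 CPM summed over 9). Vdr itself had 52, 27 and 40 reads in the knockout libraries and 46, 48 and 61 in the vehicle libraries. The log2 fold change of Vdr was -0.37 (95% interval -1.19 to 0.46; edgeR adjusted p = 0.848), and a count over the whole gene is only a weak check of the loss of 1 exon. Vehicle replicate 2 and knockout replicate 1 stood apart in some of the 9 genes, and knockout replicate 2 had the highest level of slow fibre markers, so results are given with and without them where they matter.

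The 9 genes fell into 3 patterns. Bcl6 and Pnrc1 were lower in all 3 knockout libraries than in any vehicle library, each to about the same extent, and Stat5a and Socs2 were higher in all 3. Igf1, Socs2 and Cish, the STAT5 targets, were highest in the same single mouse, knockout replicate 1. Socs3 was high in 1 vehicle mouse only, and the groups overlapped for Ghr and Stat5b. In edgeR 0 of the 9 genes had an adjusted p under 0.05, as did 0.00% of all genes tested, where 1159 genes had an unadjusted p under 0.05. Without the low-count filter edgeR called 2 of the 9, Bcl6 and Pnrc1, and 0.122% of all genes. DESeq2 called the same pair and 0.700% of all genes. As both genes were picked on this contrast, nothing is read from these counts.

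**Figure D1:**
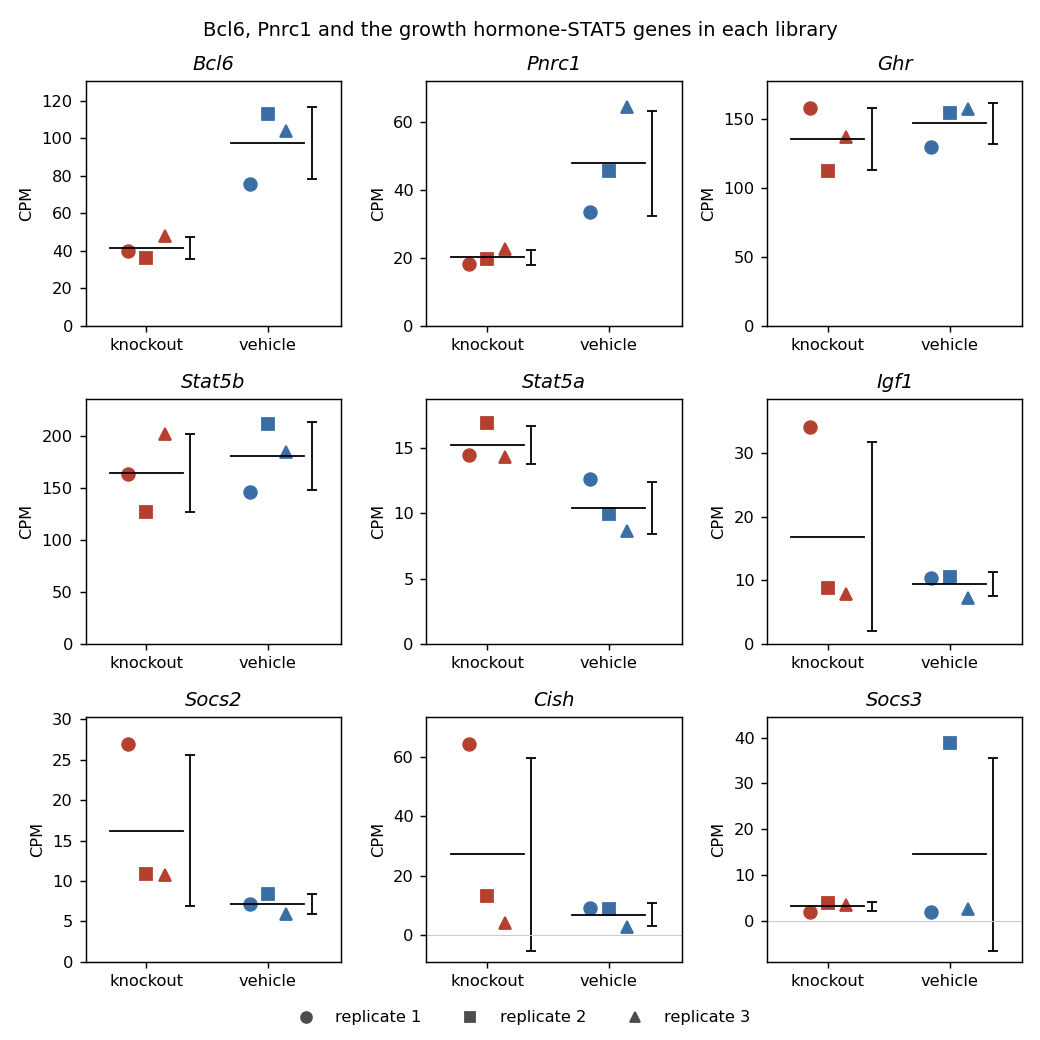
Level of the 9 genes in each library (points; vertical axis in CPM, from 0 or from below 0 where an error bar reaches there), with the group mean as a line and mean ± SD as a bar (n = 3 per group). Bcl6 and Pnrc1 were lower in every knockout library, from 36.2 to 47.6 CPM for Bcl6, whereas single mice set the knockout mean of Cish and the vehicle mean of Socs3.

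Bcl6 (ENSMUSG00000022508, chromosome 16, 23965052 to 23988852, minus strand) encodes the repressor. Its level was 39.9, 36.2 and 47.6 CPM in knockout replicates 1, 2 and 3 and 75.7, 112.9 and 103.7 CPM in vehicle replicates 1, 2 and 3. Every knockout library lay below every vehicle library, with a gap from 47.6 to 75.7 CPM. The means were 41.2 ± 5.84 CPM (SD, n = 3) and 97.4 ± 19.4 CPM (SD, n = 3), a vehicle level 2.36 times that of knockout. On the log2 scale the difference was -1.24 (SE 0.20, 95% interval -1.68 to -0.80). It rested on 1250 to 1783 Bcl6 reads per knockout library and 2443 to 4120 per vehicle library. Leaving out any 1 library gave between -1.395 and -1.13.

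Pnrc1 (ENSMUSG00000040128, chromosome 4, 33245423 to 33290163, minus strand), the coactivator gene, followed Bcl6. It measured 18.2, 19.5 and 22.5 CPM in the knockout replicates and 33.5, 45.5 and 64.3 CPM in the vehicle replicates. The knockout mice were close together, and the vehicle mice were spread widely, all above them, with vehicle replicate 3 highest. The means were 20.1 ± 2.22 and 47.8 ± 15.5 CPM (SD, n = 3 each), a log2 difference of -1.25 (SE 0.24, 95% interval -1.78 to -0.72). Its range over the fits that left out 1 library was -1.45 to -0.98. With Bcl6 it made 2 of the 9 genes whose knockout libraries all lay below the vehicle libraries, which was so for 6.48% of all genes tested. Since both were picked on this contrast, the count says nothing more.

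Slow fibre markers also differed between these libraries, from 6214 to 32880 CPM summed over 11 genes in knockout and from 1235 to 10190 CPM in vehicle. With that level as a covariate the log2 difference was -0.89 for Bcl6 and -0.83 for Pnrc1, and the part of fibre type in them was not tested further. Markers of B lymphocytes, the cells in which BCL6 is best known, were at 0 for Ms4a1 in all 6 libraries and reached at most 0.219 CPM for Cd79a. Ighm, the only B lymphocyte marker above the floor in all 6 libraries, ran from 46.1 CPM in knockout replicate 2 to 185 CPM in knockout replicate 1. In bulk muscle, fewer cells of a type and less RNA per cell cannot be told apart.

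Among all tested genes with a mean of at least 1 CPM (11385 named genes), the 5 whose log2 CPM followed Bcl6 most closely over the 6 libraries were Tpx2, a spindle assembly factor (Pearson r = 0.995), the RNA-binding protein gene Rbpms (0.993), the small nucleolar RNA Snora31 (0.991), Ppp1r15a, a phosphatase subunit of the stress response (0.990), and the cell adhesion receptor gene Pvr (0.987). All 5 shared the split between the groups, which alone raises r in 6 libraries. After each group's mean was removed, r was 0.953, 0.965, 0.941, 0.959 and 0.869 in the same order. The 5 genes were picked by r over these same libraries, so their values within groups are no separate check. Pnrc1 reached 0.953 with Bcl6, and 0.71 within the groups. Of the other genes of the set, Stat5b tracked Bcl6 within the groups (r = 0.94) but not overall (0.57), and Stat5a ran against it in both (-0.82 within, -0.94 overall). These are descriptions over 6 libraries.

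Ghr (ENSMUSG00000055737, chromosome 15, 3317760 to 3583492, minus strand), the receptor that starts the pathway, stayed within a narrow band. It measured 158.1, 112.5 and 136.9 CPM in the knockout replicates and 130.2, 154.5 and 157.4 CPM in the vehicle replicates. The groups overlapped, and the highest and lowest of the 6 values, both in knockout mice, were 1.405 times apart. The log2 difference was -0.12 (SE 0.19), with a 95% interval of -0.54 to 0.30.

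The 2 STAT5 genes lie head to head in 1 cluster on chromosome 11, Stat5b (ENSMUSG00000020919) at 100780731 to 100850724 on the minus strand and Stat5a (ENSMUSG00000004043) at 100859351 to 100885169 on the plus strand. Stat5b, the main STAT5 of muscle and liver, measured 162.7, 126.6 and 201.7 CPM in knockout and 146.0, 211.3 and 184.3 CPM in vehicle libraries. The groups overlapped widely, with a log2 difference of -0.14 (SE 0.22, 95% interval -0.64 to 0.36). Stat5a measured 14.45, 16.96 and 14.34 CPM in knockout and 12.63, 9.975 and 8.687 CPM in vehicle libraries. Its knockout libraries were all above its vehicle libraries, though by little between knockout replicate 3 and vehicle replicate 1, with means of 15.3 ± 1.48 and 10.4 ± 2.01 CPM (SD, n = 3 each). The log2 difference was 0.55 (SE 0.19, 95% interval 0.11 to 0.98).

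Stat5a was highest in knockout replicate 2 and lowest in vehicle replicate 3, the libraries with the most and the least slow fibre signal. With the slow fibre level as a covariate its difference was 0.25, and the part of fibre type in it was not tested further. Stat5a overlaps Stat3 on the opposite strand by 72 bases at their ends. Stat3 had 2480 to 3264 reads against 333 to 586 for Stat5a. Whether strand was used in the counting is not stated in the sources here, and without strand the reads of the overlap cannot be told apart. Stat5a and Stat5b are also close paralogs whose reads can be split between them. The level of Stat5b per length was 9.61 to 18.1 times that of Stat5a in the knockout libraries and 14.9 to 27.3 times in the vehicle libraries, so the groups overlapped in this ratio.

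Igf1 (ENSMUSG00000020053, chromosome 10, 87858265 to 87937042, plus strand), the growth factor through which much of growth hormone action on muscle runs, measured 34.1, 8.77 and 7.75 CPM in the knockout replicates and 10.3, 10.5 and 7.17 CPM in the vehicle replicates. Knockout replicate 1 was 3.25 times the next library, and the other 5 lay between 7.17 and 10.5 CPM. The log2 difference of 0.85 (SE 0.54, 95% interval -0.40 to 2.10) was set by that mouse: without it the value was -0.18. An antisense transcript, Igf1os, overlaps the gene and had 4 to 17 reads per library, against 275 to 1172 for Igf1.

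Cish (ENSMUSG00000032578, chromosome 9, 107296026 to 107302784, plus strand), which codes for the inhibitor CIS and is among the fastest genes to respond to STAT5, showed the same mouse more strongly. It measured 64.6, 13.02 and 3.87 CPM in the knockout replicates and 9.14, 8.88 and 2.50 CPM in the vehicle replicates. Knockout replicate 1 was 4.96 times the next library, which was knockout replicate 2, while knockout replicate 3 lay below 2 of the vehicle libraries. The highest value was 25.8 times the lowest, the widest spread among the 9 genes. The means of 27.2 ± 32.7 and 6.84 ± 3.76 CPM (SD, n = 3 each) gave a log2 difference of 1.99 (SE 0.95, 95% interval -0.23 to 4.21), which was 0.30 without knockout replicate 1. A pseudogene on the opposite strand, Gm17040, overlaps Cish and had 3 to 32 reads.

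Socs2 (ENSMUSG00000020027, chromosome 10, 95385362 to 95417180, minus strand), whose loss makes mice overgrow, combined the features of both patterns. It measured 27.0, 10.9 and 10.8 CPM in the knockout replicates and 7.15, 8.41 and 5.95 CPM in the vehicle replicates. All 3 knockout libraries were above all 3 vehicle libraries, and knockout replicate 1 was 2.49 times the next. The log2 difference was 1.18 (SE 0.36, 95% interval 0.36 to 1.99) with all libraries and 0.59 without knockout replicate 1. With Stat5a it made 2 of the 9 genes whose knockout libraries all lay above the vehicle libraries, against 5.83% of all genes tested. The rule that chose the set used this contrast, so nothing is read from the count.

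**Figure D2:**
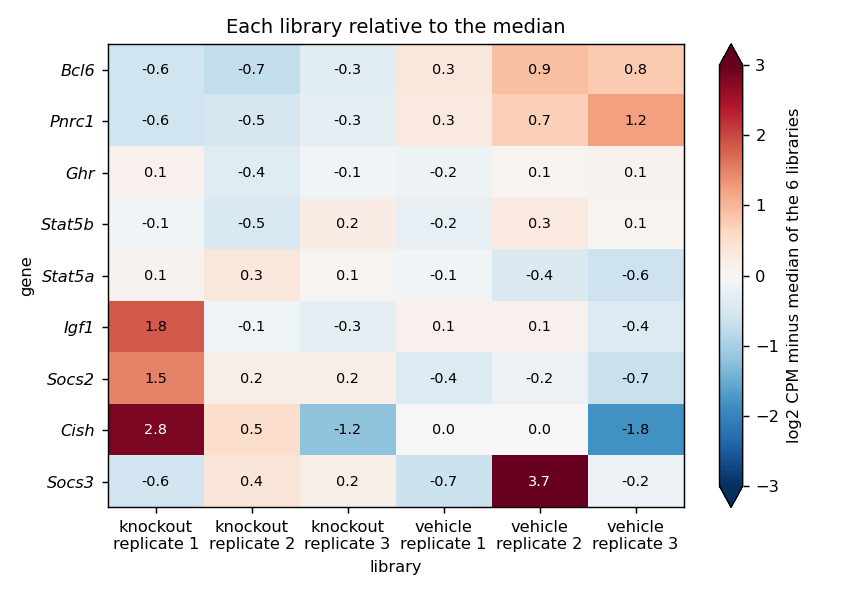
Each library's log2 CPM minus the median of the 6 libraries, for the 9 genes (rows) in the 6 libraries (columns); colour is cut at 3 in either direction. The red block of Igf1, Socs2 and Cish lies in knockout replicate 1 alone (1.8, 1.5 and 2.8), and Socs3 stands out in vehicle replicate 2 (3.7).

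Knockout replicate 1 was the highest of the 6 libraries in 4 of the 9 genes, Ghr, Igf1, Socs2 and Cish, and in 12.2% of all genes tested. Ranked by how far log2 CPM in that library lay above the median of the other 5, Cish was 6th, Igf1 28th and Socs2 48th of 15583 genes. The receptor and the transducers did not stand apart in it: Ghr was 1.16 times, Stat5a 1.14 times and Stat5b 0.883 times the median of the other libraries. Jak2, the kinase between them, was highest in knockout replicate 1, at 133.3 CPM against 49.5 to 105.5 CPM in the other libraries. Among the other genes that stood out most in knockout replicate 1, picked after their values were seen, were Actc1, the cardiac actin (830.1 CPM against 52.8 to 256.4 CPM), Cyp2e1, a drug-metabolising enzyme (61.1 against 6.18 to 27.8 CPM), and Tnfsf10, a death ligand (16.0 against 1.51 to 4.62 CPM). Adipocyte markers summed to 515.4 CPM over 8 genes in knockout replicate 1, against 800.9 and 282.8 CPM in knockout replicates 2 and 3 and 236.1 to 343.3 CPM in vehicle libraries. Cfd (120 CPM), Cidec (30.4 CPM) and Retn (12.2 CPM) of that list were highest in knockout replicate 1. The rest of the list, Adipoq, Plin1, Fabp4, Lep and Pparg, was highest in knockout replicate 2. Hepatocyte markers summed to 63.7 CPM over 6 genes in knockout replicate 1, against 12.8 to 33.2 CPM in the other libraries. Cyp2e1, already named above, made up 61.1 CPM of that sum. Alb (1.02 CPM) and Apoa1 (0.145 CPM) of the same list were lowest in knockout replicate 1. Ttr, Serpina1a and Fgb were each highest in a vehicle library. The part of these cell types in the Igf1, Socs2 and Cish values was not tested. Igfals, a STAT5 target better known from liver, was also highest in knockout replicate 1 (3.23 against 0.960 to 1.91 CPM). Bcl6 in that mouse was 39.9 CPM, between the other knockout mice.

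Socs3 (ENSMUSG00000053113, chromosome 11, 117966079 to 117970047, minus strand) behaved unlike Cish and Socs2. It measured 2.01, 3.91 and 3.42 CPM in the knockout replicates and 1.89, 38.9 and 2.64 CPM in the vehicle replicates. Vehicle replicate 2 was 9.96 times the next library, from 1420 reads against 61 to 135 elsewhere. The log2 difference of -2.22 (SE 1.09, 95% interval -4.75 to 0.31) turned to 0.44 without that mouse, and DESeq2 gave no adjusted p for Socs3. Socs3 was 6th of all 15583 genes by how far vehicle replicate 2 lay above the median of the others. The protein-coding genes above it in that list, chosen after their values were seen, were the chemokines Ccl2 (14.4 CPM against 0 to 0.668), Cxcl2 (6.41 against 0.0261 to 0.752), Ccl7 (5.10 against 0.0783 to 0.374) and Cxcl1 (23.4 against 0.116 to 1.92) and the cytokine gene Il1b (11.4 against 0.279 to 1.04 CPM). Lower in that list were Csf3r (8.30 against 0.678 to 2.17 CPM), Hdc (7.24 against 0.262 to 2.43 CPM) and Selp (5.70 against 0.378 to 0.929 CPM). S100a8, also listed, was 8.33 CPM in vehicle replicate 2 but highest in knockout replicate 2, at 12.6 CPM. Macrophage markers summed to 54.0 CPM in vehicle replicate 2, against 39.0 to 154.5 CPM in the other libraries. The part of cell types in the Socs3 value was not tested. Vehicle replicate 2 was highest in 3 of the 9 genes, Bcl6, Stat5b and Socs3, and in 15.2% of all genes tested. Without vehicle replicate 2 the Bcl6 difference was -1.13.

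**Figure D3:**
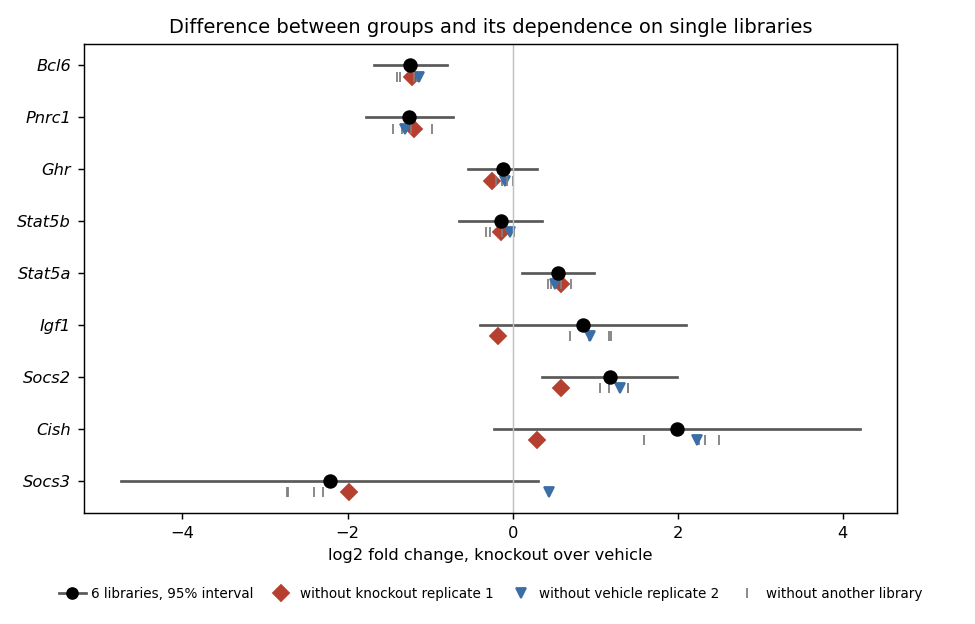
Log2 fold change of knockout over vehicle for the 9 genes with all 6 libraries (black, with 95% interval) and, below each, with 1 library left out (coloured for knockout replicate 1 and vehicle replicate 2, grey ticks for the others). With 1 library left out, Bcl6 stays between -1.395 and -1.13 and Pnrc1 between -1.45 and -0.98. Igf1 goes to -0.18 and Cish to 0.30 without knockout replicate 1, and Socs3 to 0.44 without vehicle replicate 2.

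Levels were compared between genes per length, as the deposited FPKM. Averaged over the 6 libraries, Stat5b was highest at 31.0 ± 5.95 FPKM (SD over 6 libraries), followed by Pnrc1 at 16.0 ± 8.07, Ghr at 15.6 ± 1.28 and Bcl6 at 10.2 ± 4.66. Socs3 at 3.02 ± 4.995, Cish at 2.54 ± 3.32, Stat5a at 1.82 ± 0.549, Igf1 at 1.29 ± 0.916 and Socs2 at 1.21 ± 0.723 FPKM formed a lower tier. Neighbours in this order overlapped in range in every case. Stat5b exceeded Pnrc1, Ghr exceeded Bcl6, and Bcl6 exceeded Socs3 in each of the 6 libraries, whereas Pnrc1 and Ghr changed places between the groups. Pnrc1 averaged 22.1 ± 7.07 FPKM in vehicle and 9.97 ± 1.83 in knockout libraries, beside Ghr at 15.8 ± 1.65 and 15.4 ± 1.11 (SD, n = 3 each).

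The wider pathway was read from 11 lists of other genes, 174 of whose 192 members were tested. In edgeR 0 of the 174 had an adjusted p under 0.05. Estimates were higher in knockout for 92 and lower for 82, with a median log2 fold change of 0.0278 beside 0.0211 over all genes. DESeq2 called 5 of the list genes, Pik3r1 and Cd274 higher and Pim1, Myc and Cxcl10 lower, and 0.700% of all genes. The lists were chosen with earlier results of these data known.

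**Figure D4:**
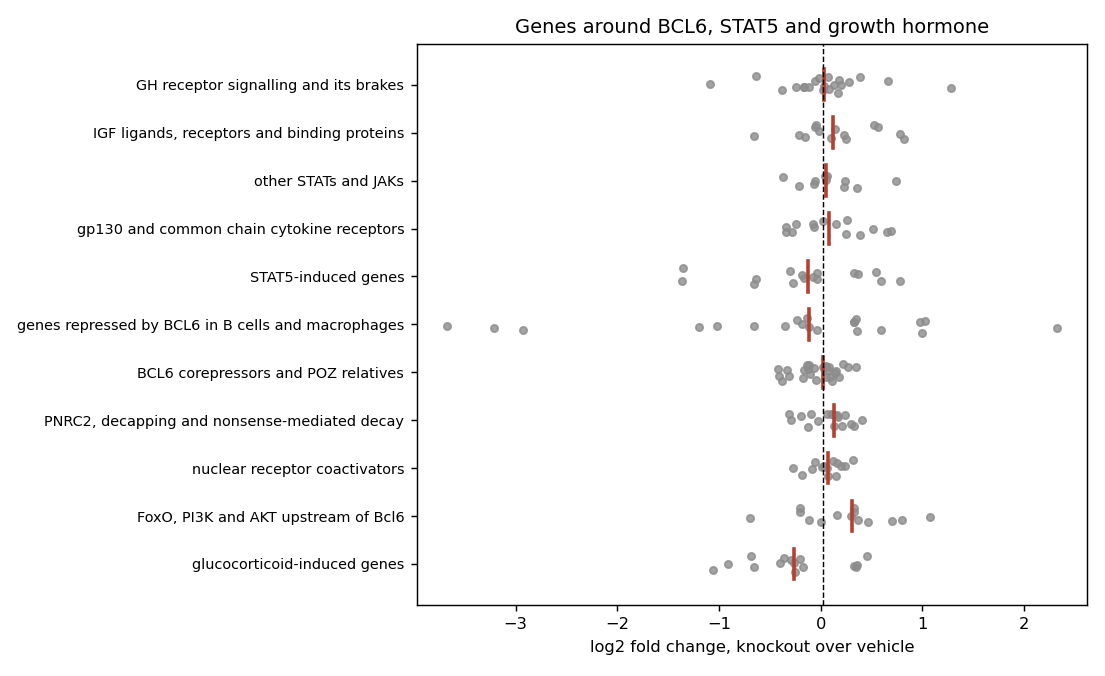
Log2 fold change of knockout over vehicle for each tested gene (grey points) of the 11 lists, with the list median (red) and the median of all tested genes (dashed, 0.0211). Most lists centre on the dashed line; the glucocorticoid-induced list (-0.26) and the FoxO, PI3K and AKT list (0.31) lie farthest from it.

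Genes that carry or brake the growth hormone signal, 21 tested, had 12 higher and 9 lower estimates, a median of 0.0335 and 0 calls in edgeR. Jak2, the kinase bound to GHR, ran from 49.5 CPM in knockout replicate 2 to 133.3 CPM in knockout replicate 1, with a log2 difference of -0.0206 (SE 0.32). The genes of smallest p were Grb10, an adaptor that restrains the insulin and IGF1 receptors, at 0.66 (SE 0.25), Irs2, which links these receptors to PI3K, at -1.09 (SE 0.49), and the phosphatase gene Ptpn2 at -0.24 (SE 0.17). Irs2 was 113.5 CPM in vehicle replicate 2 and 17.6 to 53.9 CPM in the other 5 libraries.

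Among 14 tested IGF ligands, receptors and binding proteins, 8 estimates were higher and 6 lower, with a median of 0.12 and 0 edgeR calls. Igfbp6 at 0.82 (SE 0.34) and Igfbp4 at 0.52 (SE 0.24), which bind IGFs outside the cell, were highest in knockout replicate 2. Igfals, which holds IGF1 in a circulating complex, was at 0.77 (SE 0.37). Igf1r, the receptor, was at 0.23 (SE 0.41), and Igf2 at -0.0594 (SE 0.18).

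Of 16 other STAT5-induced genes tested, 5 had higher and 11 lower estimates, with a median of -0.12 and 0 edgeR calls. Knockout replicate 1 was the highest library in 2 of the 16, Igfals being 1 of them, and in 12.2% of all genes tested. Pim1, a survival kinase gene induced by STAT5, measured 7.04, 5.79 and 12.5 CPM in knockout and 13.8, 25.7 and 25.3 CPM in vehicle libraries. All its knockout libraries were below its vehicle libraries, with a log2 difference of -1.35 (SE 0.33; edgeR adjusted p = 0.526, DESeq2 adjusted p = 0.0158). Pim2, its relative, was at -1.37 (SE 0.53), and Bcl2l1, which codes for a survival protein of mitochondria, at 0.60 (SE 0.23).

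Genes that BCL6 is reported to repress in B cells or macrophages, 21 tested, had 9 higher and 12 lower estimates in the libraries with less Bcl6, a median of -0.115, and 0 edgeR calls. Cxcl10, an interferon-induced chemokine, was at -2.93 (SE 0.53; edgeR adjusted p = 0.315, DESeq2 adjusted p = 3.43e-05). Its levels were low, 0.262 to 0.561 CPM in knockout and 1.33 to 4.77 CPM in vehicle libraries. Myc was at -1.20 (SE 0.29), and Cd274, which codes for the checkpoint ligand PD-L1, at 2.32 (SE 0.58; edgeR adjusted p = 0.526, DESeq2 adjusted p = 0.0057). Prdm1, the classical BCL6 target in B cells, was at -1.02 (SE 0.53) from levels of at most 0.822 CPM. Macrophage markers were at 154.5 and 146.4 CPM in knockout replicates 2 and 3 and at 50.02 CPM in knockout replicate 1, summed over 10 genes, against 39.0 to 71.3 CPM in vehicle libraries. Cd274 itself measured 1.54, 4.86 and 8.47 CPM in knockout replicates 1, 2 and 3 and 0.650 to 1.34 CPM in vehicle libraries. The part of macrophages in the Cd274 value was not tested.

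Among the partners of BCL6, 27 corepressor genes and relatives were tested, and 14 had higher and 13 lower estimates, all between -0.421 and 0.345, with a median of 0.0209 and 0 edgeR calls. Hdac5, a class IIa deacetylase of muscle, was at -0.41 (SE 0.15), Gps2 at -0.38 (SE 0.19) and Hdac3 at -0.33 (SE 0.17), the last 2 being parts of the NCOR complex. Ncor1, its scaffold, was at 0.15 (SE 0.23). Bcl6b, the closest relative of Bcl6, was at -0.42 (SE 0.23), from 5.00 to 9.69 CPM.

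The relatives of PNRC1 in function also stayed close to the median of all genes. Of 17 tested genes of decapping and nonsense-mediated decay, 11 had higher and 6 lower estimates, with a median of 0.13 and 0 edgeR calls. Pnrc2, its paralog, was at 0.41 (SE 0.32), opposite in sign to Pnrc1, with 72.8 CPM in knockout replicate 2 and 29.9 to 45.1 CPM elsewhere. Smg5, which recruits decay enzymes, was at 0.30 (SE 0.17) and Upf3b at -0.31 (SE 0.18). Of 14 nuclear receptor coactivator genes, 10 had higher and 4 lower estimates, between -0.276 and 0.317, with Ncoa6 at 0.32 (SE 0.22), Pprc1 at -0.28 (SE 0.23) and Crebbp at -0.19 (SE 0.19), and 0 edgeR calls.

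FoxO factors, which insulin signalling through PI3K and AKT keeps out of the nucleus, activate Bcl6 in other cells. Of 14 genes of that list, 10 had higher and 4 lower estimates, with a median of 0.31. Pik3r1, the regulatory subunit of PI3K, measured 53.8, 55.7 and 57.8 CPM in knockout and 27.2, 25.1 and 27.3 CPM in vehicle libraries, with a log2 difference of 1.07 (SE 0.14; edgeR adjusted p = 0.077). Trib1, a pseudokinase gene, was at -0.70 (SE 0.28). Of the FoxO genes themselves, Foxo1 at -0.20 (SE 0.27), Foxo3 at 0.29 (SE 0.22) and Foxo4 at -0.21 (SE 0.20) overlapped between groups. Foxo6 was higher in all 3 knockout libraries (2.19 to 2.98 CPM) than in vehicle libraries (0.987 to 1.98 CPM), with a log2 difference of 0.70 (SE 0.34).

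Glucocorticoid-induced genes had 4 higher and 11 lower estimates of 15 tested, with a median of -0.26 and 0 edgeR calls. Tsc22d3, also known as GILZ, measured 492.3, 358.0 and 541.7 CPM in knockout and 571.1, 779.9 and 892.1 CPM in vehicle libraries, with all knockout libraries lower and a log2 difference of -0.69 (SE 0.25). The ubiquitin ligase genes Fbxo32 at -0.91 (SE 0.30) and Trim63 at -1.06 (SE 0.39) were highest in vehicle replicate 2. Klf15 went the other way, at 0.45 (SE 0.18), with all knockout libraries (50.8 to 72.5 CPM) above the vehicle libraries (40.3 to 50.7 CPM), though by little. Fkbp5, another glucocorticoid-induced gene, was at 0.36 (SE 0.21), and its groups overlapped. Stat3 was at -0.0518 (SE 0.15), and of the other STAT and JAK genes, 11 tested with 0 edgeR calls, Pias2 was at -0.37 (SE 0.16) and Stat2 at 0.74 (SE 0.34). Of 14 cytokine receptor genes, 8 were higher and 6 lower in estimate with 0 edgeR calls, and Lifr, a receptor that pairs with gp130, measured 92.2, 54.2 and 69.2 CPM in knockout and 54.1, 49.9 and 47.0 CPM in vehicle libraries, a log2 difference of 0.51 (SE 0.20). Il6ra was at 0.69 (SE 0.34) and Il11ra1 at 0.39 (SE 0.24).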

How the data were processed

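RNA from gastrocnemius of 6 mice (3 knockout, 3 vehicle) was made into libraries with a stranded mRNA kit, per the labels' protocols. The deposited table holds a raw read count per gene and library and an FPKM value per gene and library. The submitters' processing notes list mm10 and the tools featureCounts, Subread 1.5.1, STAR 2.6.1c and bcl2fastq. They name neither an annotation release nor a strand setting. The authors' FPKM were used for levels between genes and for limma alternatives on log2(FPKM + 0.1) and log2(FPKM + 1).

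Counts were tested across all genes in R 4.3.3 with edgeR 4.0.16 (quasi-likelihood, robust, two-sided; filterByExpr with minimum count 10 and minimum total 15; TMM; Benjamini-Hochberg over 15583 genes, threshold 0.05). Quoted adjusted p values for genes outside the set come from that fit, DESeq2 1.42.0 or limma 3.58.1 as named, standard errors from edgeR's F statistic, and log2 CPM use a prior count of 2. The fits were tested on simulated data. Replicate numbers only name mice and do not pair them. The 9 genes, the lists and the alternatives were chosen with earlier results of these data known; named list genes are the 3 of smallest p with a mean of at least 1 CPM (other list genes were named after their values were seen, and some are not reported here), and 5 genes were named for likeness to Bcl6. Sequences come from RefSeq, GRCm38.p6. Socs2 had no window.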

Additional observations from a re-analysis of the deposited data

How the results depend on the processing

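Over all genes the count under the threshold was 0, and it was 4 with DESeq2 size factors in edgeR, 109 with DESeq2, 29 without a low-count filter and 0 to 24 when 1 library was left out (24 without knockout replicate 1, 6 without knockout replicate 2); leaving out both knockout replicate 1 and vehicle replicate 2, chosen after seeing the data, gave 20. Lists of pathway genes had 0 calls, but 5 with DESeq2, 2 without the filter (Cxcl10 and Pik3r1), 0 to 1 with 1 library left out (Cd274 without knockout replicate 1) and 1 with both left out (Cd274). Of the 9 genes, 5 had lower estimates; this was 3 to 6 with 1 library left out (3 without knockout replicate 2, when Ghr and Stat5b were near 0), and 3 with slow fibre level as a covariate, also chosen after seeing the data, since Ghr and Stat5b turned to 0.16 and 0.23. Of 99 fold changes of the 9 genes under 11 alternatives, 94 moved by less than the spread between mice and 5 by more: Igf1, Socs2 and Cish without knockout replicate 1, Socs3 without vehicle replicate 2, and Socs2 with log2(FPKM + 1), at 0.61. Of 18 more values from both fits added after seeing the data, 7 moved by more: with the slow fibre covariate Bcl6 (-0.89), Pnrc1 (-0.83), Stat5a (0.25), Ghr and Stat5b, and without both libraries Igf1 (-0.09) and Socs3 (0.67). Bcl6 and Pnrc1 were below 0 in all of these fits. No paired analysis was possible because the labels give no replicate numbers shared between groups. With 3 mice per group, intervals span about 0.8 or more on the log2 scale, and for Cish and Socs3 over 4.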
